A study of Mus musculus with 12 samples.

Results

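The subject here is the expressed probe sets for which the array annotation lists no gene symbol. A probe set belongs if its ID does not mark it as an array control, if no symbol is listed for it, and if its mean log2 level over the 12 arrays is above log2 of 3, rounded to 2 decimals, called the threshold below. This gave 3655 probe sets, called unlisted probe sets below, of 45101 on the array. A probe set that the table does not list is unnamed here, which does not show that it detects no gene. The level over all arrays chose the members, so it is a description only. The rule uses no difference between groups, but it was chosen with earlier results of these data known. A probe set can also pass the threshold through the arrays of 1 line alone, as 1458719_at did, or of 1 group, as 1458451_at did.

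Cerebellar RNA came from 12 mice aged 6 weeks, with 1 array per mouse and 3 arrays in each of 4 groups, all on a C57BL/6 background. The knockin groups, MPI 11Q/11Q and MPI 118Q/118Q, are homozygous for a Sca6 knockin allele, and each has its own group of wild type littermates. Only whole cerebellum was measured, so fewer cells of a type and less RNA per cell cannot be told apart. The sources used here give no further detail on the lines.

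Expanded CAG repeats in Cacna1a, the gene of the P/Q-type calcium channel, cause spinocerebellar ataxia type 6, in which Purkinje cells, the output neurons of the cerebellar cortex, degenerate. Expression arrays of this kind read a transcript with a set of short probes, and each set has an ID made of a number and a suffix. In the maker's naming, the plain suffix _at marks probes meant for a single transcript and _a_at marks probes shared by transcripts of the same gene. The suffix _s_at marks probes shared by transcripts of different genes, and _x_at marks sets in which some probes may bind unrelated transcripts. Part of such an array was designed from expressed sequence tags, short reads of cDNA clones that can come from untranslated ends, unspliced RNA or noncoding transcripts. No probe sequences were used here, so which unlisted probe sets are of this kind was not tested.

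The 118Q knockin stood apart from the other groups in the unlisted probe sets, and those called were almost all lower. Of the 3655, limma called 331 at an adjusted p below 0.05, of which 323 were lower and 8 higher than in the littermates, 3 arrays against 3. Over all 27026 probe sets tested, 2.25% were called, 1.78% lower and 0.47% higher. Among unlisted probe sets 8.84% were lower and 0.219% higher. Among the 22786 probe sets with 1 symbol 0.689% were lower (157) and 0.465% higher (106). Unlisted probe sets thus held 323 of the 482 calls on the lower side. At an unadjusted p below 0.05 by limma there were 1091 unlisted ones (29.85%, against 18.1% of all tested). Of these, 898 were lower and 193 higher.

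The size of the change followed the same division. The median difference was -0.11 log2 units in unlisted probe sets, 0.05 in those with 1 symbol and 0.03 in all tested, and 64.7% of unlisted ones lay below 0 against 41.5% of those with 1 symbol. A fall of more than 1 log2 unit was read in 235 unlisted probe sets (6.43%) and in 61 with 1 symbol (0.268%). The 323 that were called fell by a median of 1.10, with the middle of the distribution between -1.31 and -0.86 and extremes of -2.59 and -0.44. In 322 of the 323 all 3 knockin arrays lay below all 3 littermate arrays. Among all unlisted probe sets the groups were separate in that direction in 876 (24.0%) and in the other in 209 (5.72%), where all tested probe sets gave 9.22% and 12.4%.

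**Figure D1:**
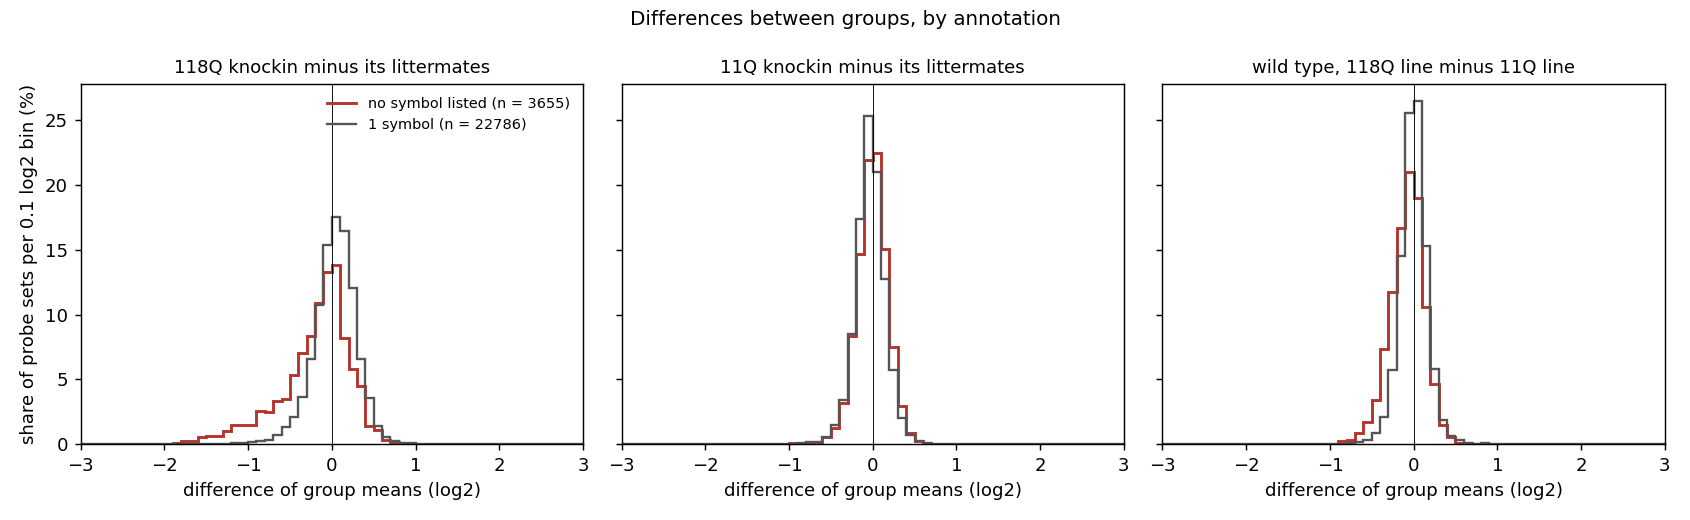
Share of probe sets (percent, vertical axis) by difference of group means (log2, horizontal axis) for 3 comparisons, with unlisted probe sets in red and probe sets with 1 symbol in grey. In the 118Q comparison the red curve has a long tail to the left, with 6.43% of unlisted probe sets below -1 against 0.268% of the others, and in the 11Q comparison both curves nearly coincide.

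The number called rested on single arrays and on what entered the fit. It was 115 and 111 without wild type replicates 1 and 3 of the 118Q line (3.15% and 3.04%, against 0.136% of those with 1 symbol each time). Without knockin replicates 2 and 3 it was 146 and 183 (3.99% and 5.01%, against 0.219% and 0.184%). The count was 97 when the model held just the 2 groups of the line and 1023 (715 lower) with array weights. With weights 28.0% of unlisted probe sets and 20.9% of those with 1 symbol were called, and 19.6% against 7.51% were called lower, so the gap between the classes was much smaller in relative terms. In the model of the 118Q groups alone 2.65% of unlisted probe sets and 0.0571% of the others were called lower.

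The 6 unlisted probe sets that fell furthest, among those called with separate groups, are given by array. For 1447221_x_at the 118Q knockin arrays read 3.32, 1.37 and 2.39 and their littermates 4.32, 4.87 and 5.67. The 6 arrays of the 11Q line lay between 4.86 and 5.95, above every 118Q knockin array. Its fall was 6.02-fold, -2.59 ± 0.44 (SE; limma adjusted p = 0.0120), and it missed the threshold of significance without littermate replicate 3 (adjusted p = 0.0611) and in a model of the 118Q groups alone (0.0657). For 1443630_at the knockin arrays read 1.68, 1.11 and 1.5753 and the littermates 3.29, 3.05 and 4.40. All 3 knockin arrays were close to the dim end of the array, and littermate replicate 3 was the brightest of its group, as it was for 1447221_x_at. The fall of 1443630_at was -2.13 ± 0.30 (limma adjusted p = 0.00477).

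For 1446972_at the knockin arrays read 2.83, 2.68 and 3.24 against 5.04, 4.43 and 4.95 in littermates, a fall of 1.89 ± 0.23 on the log2 scale (limma adjusted p = 0.00196). For 1429906_at they read 3.13, 2.43 and 2.63 against 4.42, 4.57 and 4.85, a 3.69-fold fall (-1.88 ± 0.19, limma adjusted p = 0.00116). In these 2 no array of either line outside the 118Q knockin overlapped with it. For 1459338_at the knockin arrays read 2.34, 2.76 and 2.69 and the littermates 4.58, 3.74 and 4.88 (-1.80 ± 0.24, limma adjusted p = 0.00329). Here the littermates were lower than every array of the 11Q line, which read 5.12 to 5.59. For 1458779_at, the brightest of the 6, the knockin arrays read 5.39, 3.68 and 4.68 and the littermates 6.36, 6.29 and 6.46 (-1.79 ± 0.31, limma adjusted p = 0.0120). Its knockin arrays spread over a wide range while the littermates did not. It was not called in a model of the 118Q groups alone (adjusted p = 0.0786), nor without littermate replicate 1 or 3.

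**Figure D2:**
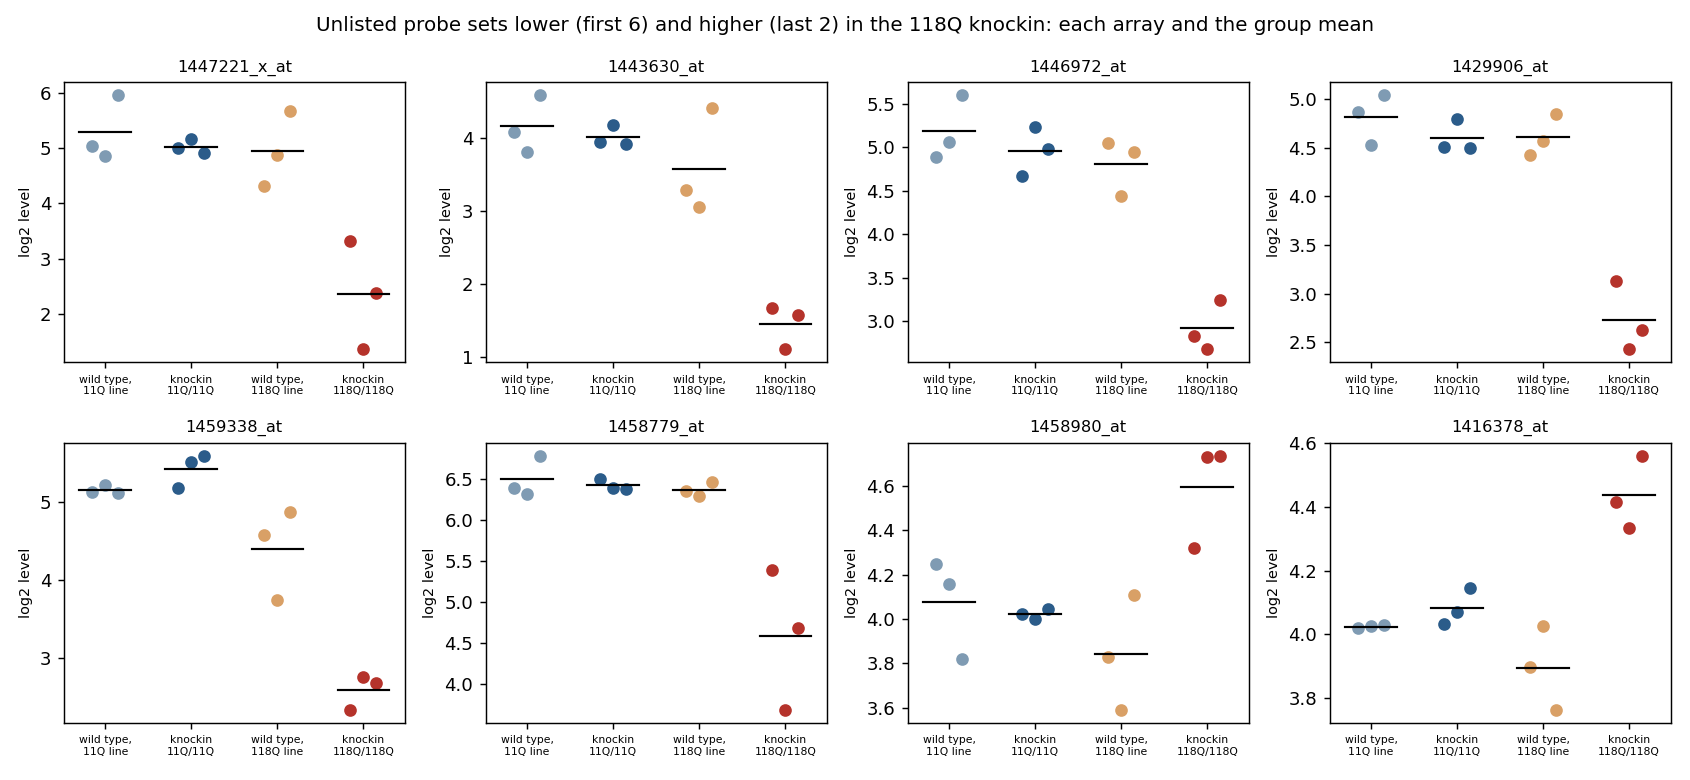
Log2 level (vertical axis) in each array (points) and the group mean (bars) for the 6 unlisted probe sets with the largest fall in the 118Q knockin and for 2 of those that rose. In each of the first 6 panels the 118Q knockin arrays lie below all 9 other arrays, and in the last 2 they lie above them.

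Few unlisted probe sets rose in the 118Q knockin. All 8 that were called had separate groups, and the largest rise was smaller than the median fall. For 1458980_at the knockin arrays read 4.32, 4.73 and 4.74 and the littermates 3.83, 3.59 and 4.11, a rise of 0.76 ± 0.16 (limma adjusted p = 0.0329). For 1416378_at they read 4.42, 4.34 and 4.56 against 3.90, 4.03 and 3.76, a rise of 0.54 ± 0.11 (limma adjusted p = 0.0222). Groups did not overlap for either, but the steps were small beside those of the probe sets that fell. The others named by the rule were 1442044_at (0.71), 1417505_s_at (0.57), 1458451_at (0.57) and 1455589_at (0.54), with adjusted p-values by limma of 0.0341 to 0.0480. Of these, 1458451_at passed the threshold only through the 118Q knockin arrays, so its rise is a description only. Its group mean was 1.99 there and 1.42 to 1.61 in the other groups. None of the 6 named rises was called by limma in a model of the 118Q groups alone (adjusted p = 0.117 to 0.146). Leaving out 1 array at a time ended the call of 1442044_at in 10 of 12 fits and that of 1416378_at in 3.

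The falling probe sets were also unevenly spread over ID suffixes and ID numbers. Their positions on the array surface were not used. By suffix, 315 of the 323 were plain _at sets, 9.51% of the 3312 unlisted ones of that kind. Of 141 unlisted _a_at sets, 0 were called lower by limma and 7 had separate groups in that direction, and the median difference was 0.08. The 67 _s_at and 135 _x_at sets had 3 and 5 called lower (4.48% and 3.70%). Among probe sets with 1 symbol the plain sets were lower in 0.816% and the _a_at sets in 0.128%. In both annotation classes, then, the _a_at sets had the lower share of falls.

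By ID number, 263 of the 2546 unlisted probe sets from 1440000 upward were lower (10.3%), and 60 of the 1109 with smaller numbers (5.41%). In blocks of 5000 numbers the share ran from 1.37% in the block that starts at 1420000 to 11.99% in the block that starts at 1440000. In that latter block 31.2% of unlisted probe sets had separate groups on the lower side, and the median difference was -0.20. It is also the block of the array with the highest share of probe sets without a symbol, 44.6%, against 4.96% in the block that starts at 1415000. Probe sets with 1 symbol were lower in 0.281% to 2.00% of a block, with the highest share in the same block, and in each of the 10 blocks their share was smaller than that of the unlisted ones. Of the 323, 90 had an unlisted probe set with the next number up or down, and for 12 that neighbour was itself among the 323. Whether any of these detect the same transcript was not tested.

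The contrast was read in each class of level. Unlisted probe sets were dimmer, with a median level of 3.09 against 4.55 for those with 1 symbol, and 39.9% of all unlisted probe sets passed the threshold against 65.2%. Their spread between replicates was also larger, with a median SD within groups of 0.221 against 0.188. All tested probe sets were split into 4 equal classes of mean level, with limits at 2.81, 4.34 and 5.88. From the dimmest class to the brightest, unlisted probe sets were lower in 3.31%, 13.3%, 15.6% and 8.22%, and those with 1 symbol in 0.274%, 0.800%, 0.773% and 0.852%. In each class the unlisted share was the larger. Of the 323, 26 had a knockin mean under the threshold, where a fall can be limited by the dim end of the scale.

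**Figure D3:**
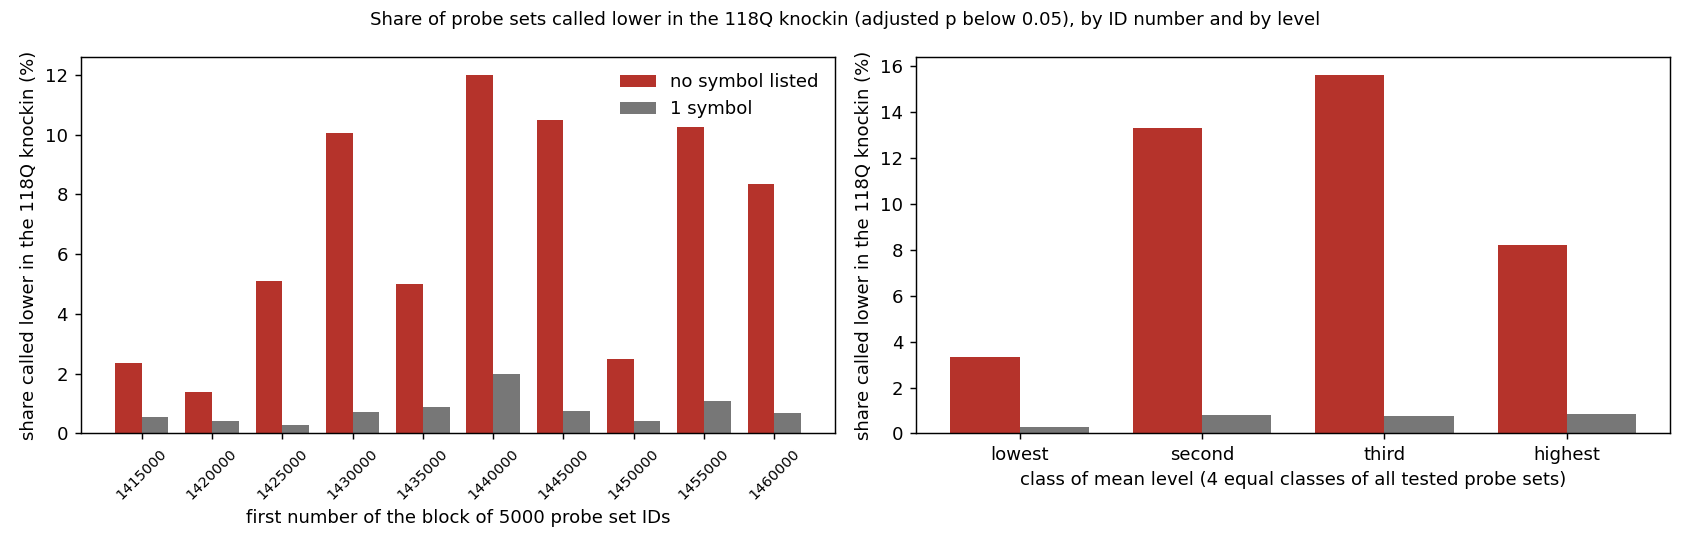
Share of probe sets called lower in the 118Q knockin (percent, vertical axes, limma adjusted p below 0.05) by block of 5000 ID numbers on the left and by class of mean level on the right, for unlisted probe sets (red) and those with 1 symbol (grey). The red bars are taller in every block and class, and highest at 11.99% in the block from 1440000 and at 15.6% in the third class of level.

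Probe sets with a symbol can be divided by the type of their gene. The RefSeq gene table gave a type for all but 67 of the probe sets with 1 symbol. Of 497 for long noncoding RNAs, 7 were lower (1.41%) and 17 higher (3.42%), with a median of 0.11. Of 22128 for protein-coding genes 145 were lower (0.655%) and 89 higher (0.402%), with a median of 0.05. Both the share called lower, on 7 calls, and the share called higher were thus larger for long noncoding RNAs than for protein-coding genes. Groups were separate on the lower side in a smaller share of long noncoding RNAs, 3.82% against 7.06%. Both shares called lower were smaller than the 8.84% of unlisted probe sets. None of the 3655 unlisted probe sets could be joined to that table, as no identifier is listed for them.

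By array, the shift was present in each 118Q knockin mouse. As deviation from a probe set's mean over 12 arrays, the median of the 3655 was -0.12, -0.13 and -0.10 in the knockin and 0.03, -0.05 and 0.06 in its littermates. In the 11Q line it was 0.05, 0.06 and 0.11 in littermates and -0.02, 0.09 and 0.11 in the knockin. The 118Q knockin arrays were the lowest of the 12, and the next was replicate 2 of their littermates. Over the 323 that fell, which were chosen for this contrast, the median was -0.79, -1.10 and -0.86 in the knockin and 0.22, -0.07 and 0.36 in its littermates. The 6 arrays of the 11Q line lay between 0.27 and 0.52. Probe sets with 1 symbol moved little the other way, to 0.03 to 0.05 in the 118Q knockin against -0.01 to 0.01 in its littermates.

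Array controls also differed in the 118Q knockin arrays, with 18S lower and the added RNAs higher than in littermates. The mean of the 18S ribosomal RNA controls was 9.23, 8.63 and 8.56 in the 118Q knockin and 9.78, 9.66 and 10.3 in its littermates, and 10.1 to 10.5 in the 11Q line. The phe spike-in control, an added bacterial RNA, read 3.42, 3.85 and 3.52 against 3.15, 3.28 and 2.65. The 118Q knockin arrays were thus the lowest in 18S and the highest in phe. Group means of the other added RNAs were 3.01 against 2.60 in littermates (lys), 3.69 against 3.18 (thr) and 5.83 against 5.30 (dap). For dap the arrays of the 2 groups overlapped. With the 18S signal as covariate limma called 0 unlisted probe sets in this comparison, with 307 at an unadjusted p below 0.05 (187 lower). It also called 0 of the probe sets with 1 symbol. Of the 6 furthest falls, that of 1447221_x_at was then -0.71 (limma adjusted p = 0.881), that of 1443630_at -0.93 (0.811) and that of 1458779_at -0.80 (0.846), and those of 1446972_at, 1429906_at and 1459338_at were -1.57, -1.22 and -1.36. The median difference was then -0.06, and the median standard error rose from 0.169 to 0.329. The 3' to 5' difference of the actin control ran from 1.04 to 1.15 in the 118Q knockin arrays, and in the littermate arrays from 1.13 to 1.31. For the GAPDH control it ran from -0.16 to -0.12 in the 118Q knockin arrays and from -0.11 to -0.03 in the littermates, without overlap. As the 18S signal was lowest in the 118Q knockin arrays, the covariate takes up part of any group difference. The part of RNA quality or hybridisation in the fall was not tested.

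**Figure D4:**
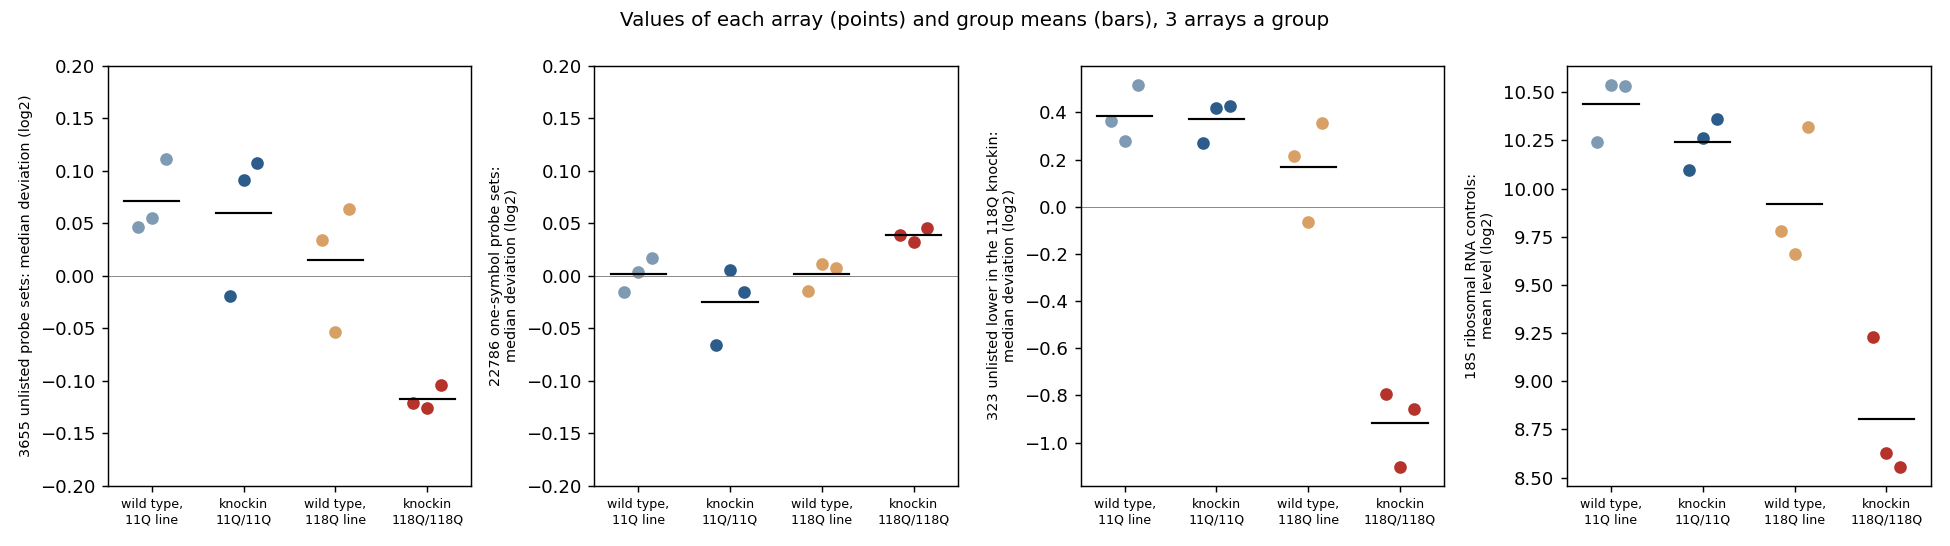
Values of each array (points) and group means (bars), 3 arrays a group. From left to right the vertical axes show the median log2 deviation of all 3655 unlisted probe sets, of 22786 with 1 symbol, of the 323 unlisted ones called lower in the 118Q knockin (chosen on that contrast), and the mean log2 level of the 18S controls. The 118Q knockin arrays are lowest in every panel but that of probe sets with 1 symbol, and littermate replicate 2 of that line is next lowest in the 3 panels where they are lowest.

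Marker genes were put in lists as a check of tissue and of cell types. Purkinje and granule cell markers were bright, the dimmest being Homer3 (5.81) and Zic2 (7.63), and 0 of 4 forebrain markers were above the threshold. In the 118Q knockin 12 of 13 measured Purkinje markers lay below 0, and limma called 3 lower, namely Slc1a6, a glutamate transporter, Car8 and Dner. Their mean level was 8.24 to 8.87 against 9.08 to 9.13 in littermates. All 9 endothelial and mural markers lay below 0 (3 called: Flt1, Acta2 and Abcb1a), with a mean level of 4.03 to 4.49 against 4.66 to 4.92. All 6 interneuron markers lay below 0 (median -0.42, none called), with a mean level of 4.71 to 5.40 against 5.36 to 5.53. All 7 meningeal fibroblast markers lay below 0 (median -0.26, none called), with a mean level of 4.67 to 4.71 against 4.87 to 5.11. All 11 measured microglia markers lay at or above 0 (called: Trem2 and Tyrobp), with a mean level of 4.56 to 5.04 against 4.04 to 4.40. No listed marker that was measured read 0. The part of cell composition in the fall of unlisted probe sets was not tested. The 3 probe sets of Cacna1a above the threshold differed by -0.34 to 0.17 in the 118Q knockin and by -0.07 to 0.22 in the 11Q knockin, none called by limma.

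The named genes whose levels ran closest to the 6 falling probe sets are given by Pearson correlation over the 12 arrays, which is high for any pair that is low in the 118Q knockin. For 1447221_x_at they were Slc8a1, a sodium-calcium exchanger (r = 0.984), and Svil (0.983). For 1443630_at they were Tnrc6b, a protein of microRNA silencing (0.988), and Tenm2, an adhesion protein of synapses (0.987). For 1446972_at they were Atrn (0.977) and Insyn2a (0.975). For 1429906_at they were Fgf14, a regulator of sodium channels (0.977), and Mycbp2, a ubiquitin ligase of axons (0.975). For 1459338_at they were C130075A20Rik (0.989) and Nsf, the ATPase that takes SNARE complexes apart (0.988). For 1458779_at they were Kifap3, a partner of kinesin-2 (0.984), and Cltc, the clathrin heavy chain (0.980). In the 118Q knockin the probe set of Fgf14 fell by 1.64 (limma adjusted p = 0.00219). Those of C130075A20Rik (-1.52), Tenm2 (-1.19), Nsf (-0.78), Insyn2a (-0.64) and Mycbp2 (-0.59) were also called, while those of Svil, Cltc, Tnrc6b, Slc8a1, Kifap3 and Atrn did not pass (limma adjusted p = 0.0522 to 0.0908). The falling unlisted probe sets also ran together, with a median r of 0.894 between pairs of the 323 over the 12 arrays, which share that contrast.

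In the 11Q knockin limma called 0 unlisted probe sets against its littermates, and 0% of all tested. An unadjusted p below 0.05 was reached by 120 (3.28%), 63 of them higher, against 3.61% of those with 1 symbol. The median difference was -0.00 for unlisted probe sets and -0.03 for the others. Groups did not overlap in 161 on the lower side (4.40%) and 182 on the higher (4.98%), where all tested gave 6.15% and 3.52%. The 323 that fell in the 118Q knockin had a median of -0.01 here, and 9 of them an unadjusted p below 0.05.

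A few unlisted probe sets split the 11Q groups widely all the same. For 1443104_at the knockin arrays read 2.48, 2.77 and 3.10 and the littermates 5.11, 5.00 and 5.13. In the 118Q line the littermates read 4.93, 2.34 and 4.55 and the knockin 2.25, 3.67 and 1.99, so arrays near 5 and arrays near 2 occurred side by side in the littermates. For 1444260_at the 11Q knockin read 2.92, 3.61 and 3.22 and its littermates 5.39, 5.36 and 5.33. The 118Q line again held both levels, with littermates at 5.34, 3.14 and 4.66 and knockin arrays at 4.68, 4.94 and 2.89. The 2 probe sets correlated at r = 0.853 over the 12 arrays. Both have littermate replicate 2 of the 118Q line on the low side. For 1420286_at the order was turned, with 3.79, 3.87 and 3.80 in the 11Q knockin and 2.68, 2.76 and 2.502 in its littermates. The differences were -2.30 ± 0.56, -2.11 ± 0.54 and 1.17 ± 0.29, none called by limma over all 12 arrays (adjusted p = 0.977). A limma fit of only the 11Q groups, where the spread of the 118Q line does not enter, called these 3 and no other unlisted probe set (adjusted p = 0.00403, 0.0100 and 0.0263). Over the alternatives tried, their adjusted p ranged up to 1.00.

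The difference of the knockin effects asks whether the 118Q knockin departs from its littermates by more than the 11Q knockin does from its own. limma called 21 unlisted probe sets, all with the more negative effect in the 118Q line, which is 0.575% of them against 0.0962% of all tested and 5 of those with 1 symbol (0.0219%). All 21 were also among those that fell in the 118Q knockin, but the difference contains that effect, so overlap is built in. The median difference was -0.13 in unlisted probe sets, 0.07 in those with 1 symbol and 0.05 in all tested. For 1433169_at the 118Q knockin read 4.44, 3.88 and 4.05 and its littermates 5.56 in each array, while the 11Q knockin read 5.82, 6.07 and 5.69 and its littermates 5.55, 5.51 and 5.51. The fall in one line and the small step up in the other gave -1.78 ± 0.20 (limma adjusted p = 0.0142). The other probe sets named by the rule were 1459338_at (-2.08), 1442752_at (-2.02), 1439123_at (-1.86), 1459537_at (-1.82) and 1439895_at (-1.73), with limma adjusted p = 0.0414 to 0.0491. No unlisted probe set was called with the more positive effect in the 118Q line, and the closest by p, 1438739_at, differed by 0.87 (adjusted p = 0.0967). This count was fragile. It was 0 to 2 when any 1 array of the 11Q line was left out, without littermate replicate 1 or 3, or without knockin replicate 2 or 3 of the 118Q line. Without littermate replicate 2 or knockin replicate 1 of that line it was 126 and 63 (3.45% and 1.72%, against 0.132% and 0.162% of those with 1 symbol).

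The 118Q knockin and the 11Q knockin share no arrays and were also compared directly. limma called 960 unlisted probe sets, 26.3% against 13.5% of all tested. Of these, 858 were lower in the 118Q knockin (23.5%, against 6.47% of all tested) and 102 higher (2.79%, against 7.07%). Probe sets with 1 symbol went the other way, with 879 lower (3.86%) and 1699 higher (7.46%). Of the 323 that fell against littermates, 316 were also called lower here; both comparisons use the 118Q knockin arrays. Groups did not overlap in 1262 unlisted probe sets on the lower side (34.5%, against 15.2% of all tested) and 345 on the higher (9.44%, against 21.5%). The furthest lower were 1459338_at (-2.84 ± 0.24), 1445307_at (-2.71 ± 0.25) and 1447221_x_at (-2.66 ± 0.44), with limma adjusted p of at most 0.00317. The furthest higher were 1458719_at (2.99 ± 0.57, adjusted p = 0.00604), 1427820_at (1.79 ± 0.36, adjusted p = 0.00772) and 1459557_at (1.33 ± 0.29, adjusted p = 0.0123), by limma. Of these, 1458719_at passed the threshold through the 118Q line alone, so its direction was set by the rule and is a description only. With the 18S signal as covariate limma called 0 unlisted probe sets (437 at an unadjusted p below 0.05) and 0 with 1 symbol. In that fit 1427820_at turned to -0.17 and 1447221_x_at was at -0.24 (limma adjusted p = 0.926). The count was 607 and 608 without 11Q knockin replicates 2 and 3 (16.6% each, against 4.92% and 4.91% of those with 1 symbol). It was 633 without 118Q knockin replicate 2 (17.3%, against 4.75%).

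The wild type groups of both lines carry no knockin allele. limma called 0 unlisted probe sets between them, and 0% of all tested, but 253 (6.92%) had an unadjusted p below 0.05, 214 of them lower in the 118Q line, against 2.95% of those with 1 symbol. The median was -0.06 for unlisted probe sets and 0.00 for those with 1 symbol. On the lower side 266 had separate groups (7.28%, against 3.59% of all tested) and on the higher side 111 (3.04%, against 3.47%). The 323 that fell in the 118Q knockin had a median of -0.21 here, and 47 had an unadjusted p below 0.05. The 18S signal was 9.92 ± 0.35 (SD, n = 3) in the wild type of the 118Q line and 10.4 ± 0.17 in that of the 11Q line.

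The probe set with the smallest p between wild types was 1445307_at. It read 5.75, 5.46 and 5.63 in the wild type and 5.69, 5.92 and 5.82 in the knockin of the 11Q line. In the 118Q line it read 4.41, 3.76 and 4.44 in the wild type and 2.65, 2.93 and 3.74 in the knockin. The lines did not overlap, and within the 118Q line the knockin lay below the littermates (-1.10 ± 0.25, limma adjusted p = 0.0379). Between wild types the difference was -1.41 ± 0.25 (limma adjusted p = 0.746). For 1440311_at and 1446360_at the wild types also did not overlap (-0.93 and -0.67), without passing.

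In order of group means, the 118Q knockin was the lowest of the 4 groups in 1971 unlisted probe sets (53.9%), against 27.1% of those with 1 symbol. It was the highest in 23.6%, against 44.2%. The median level of unlisted probe sets by array was 3.16 to 3.35 in the wild type and 3.10 to 3.27 in the knockin of the 11Q line, 2.99 to 3.20 in the wild type of the 118Q line, and 2.82 to 2.91 in its knockin. The first 3 groups overlap in this measure and the last lies below them.

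The brightest unlisted probe sets differed little between groups. The 5 with the highest mean were 1449436_s_at (11.8), 1423807_a_at (11.4), 1435643_x_at (11.4), 1453723_x_at (11.3) and 1416624_a_at (11.0), none of them a plain _at set. They differed by -0.21 to 0.27 in the 118Q knockin, 4 of them below 0 and around the median of all unlisted probe sets, and none was called by limma (adjusted p = 0.220 to 0.710). The SD of each over the 12 arrays was 0.0924 to 0.145. At the other end, the 3 unlisted probe sets just above the threshold, 1444485_at, 1458838_at and 1458749_at, had means of 1.5801, 1.581 and 1.581. The 3 just below it, 1447616_at, 1458628_at and 1445773_at, had means of 1.5793, 1.5789 and 1.5776, and the last of these still reached 3.58 in 1 array.

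Of the 5 unlisted probe sets that varied most over the 12 arrays, 1458719_at split the lines and 1447221_x_at set the 118Q knockin apart. For 1458719_at all 6 arrays of the 11Q line read 0.86 to 0.91, near the lowest values on the array. It passed the threshold through the 118Q line alone, so the direction between the lines was set by the rule. In the 118Q line the littermates read 2.99, 1.17 and 4.19 and the knockin 3.66, 3.18 and 4.73. The lines did not overlap, and the difference between wild types was 1.89 ± 0.57 (limma adjusted p = 1.00, unadjusted p = 0.00545). The named genes closest to it were Mapk14, a stress-activated kinase (r = 0.971), and Glo1, the glyoxalase that clears methylglyoxal (0.962).

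For 1448136_at, bright in every array, the 11Q knockin read 7.09, 7.49 and 10.2 and its littermates 10.5, 10.6 and 9.89. The 118Q knockin read 9.59, 9.35 and 7.94 and its littermates 10.8, 7.77 and 9.78. The spread ran within groups, and no comparison called it. Its closest named genes were Car12, a carbonic anhydrase (r = 0.992), and Kl, a marker of the choroid plexus list (0.986). The mean level of the 8 choroid plexus markers ran from 2.56 to 5.68 in the 11Q knockin and 2.88 to 6.68 in the 118Q littermates, and the part of choroid plexus tissue in these arrays was not tested.

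For 1440698_at the 11Q littermates alone read 4.58, 1.29 and 6.11, and the 118Q knockin 3.55, 2.57 and 3.299 against 4.78, 4.65 and 5.92. For 1459253_at the 11Q littermates read 3.22, 1.36 and 4.77, and the 118Q knockin 1.19, 1.501 and 1.76 against 1.16, 3.38 and 3.79. Both were low in 11Q littermate replicate 2. Neither was called by limma in the 118Q comparison (adjusted p = 0.255 and 0.384). The values of 1447221_x_at, with the largest fall in the 118Q knockin, are given above.

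**Figure D5:**
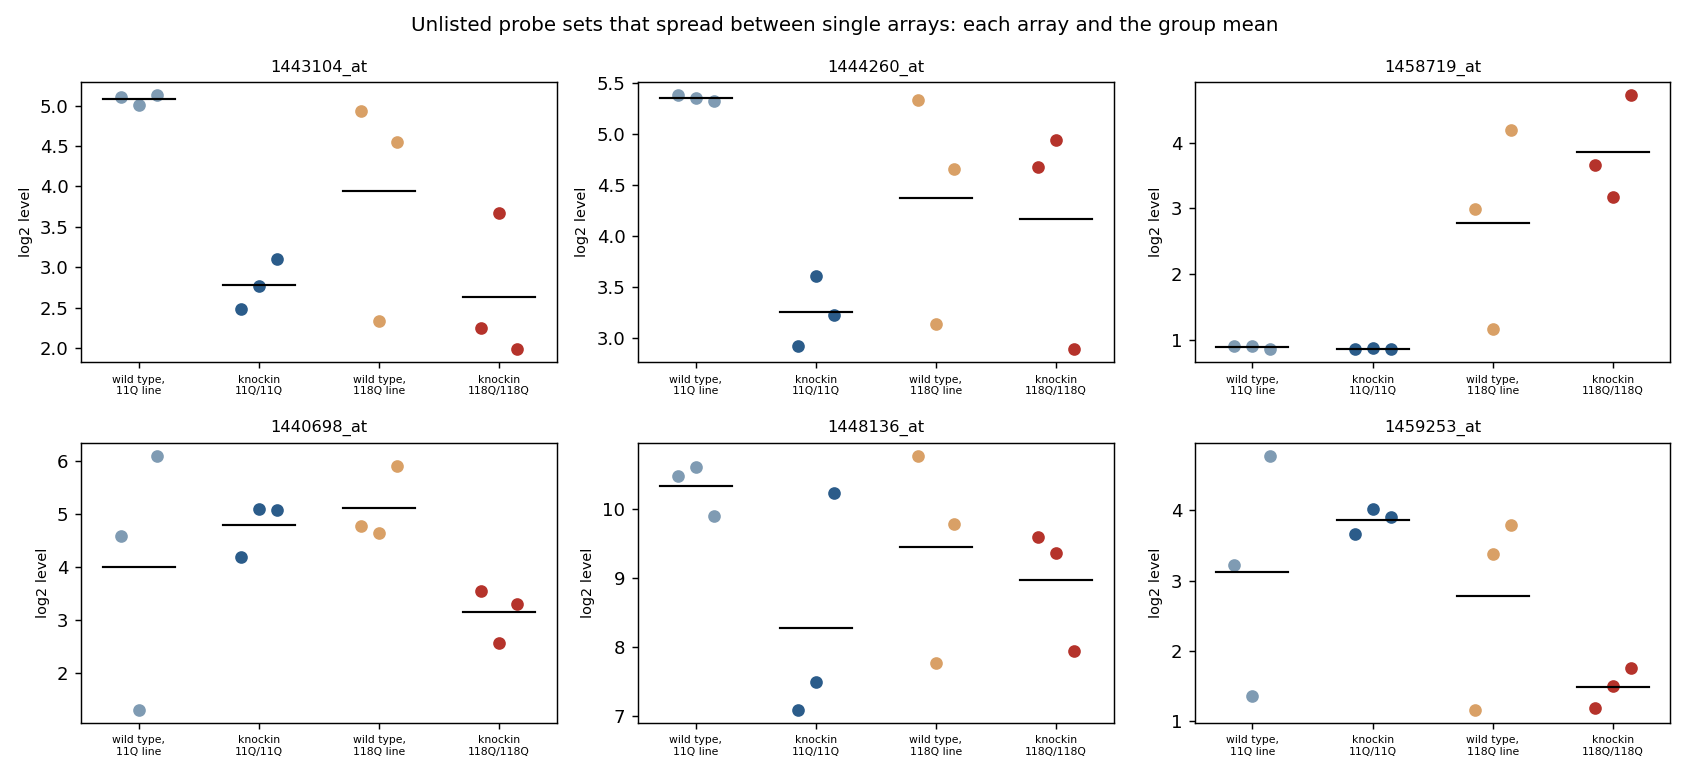
Log2 level (vertical axis) in each array (points) and the group mean (bars) for 6 unlisted probe sets that spread between single arrays. The upper row shows 1443104_at and 1444260_at, separate in the 11Q line and mixed in the 118Q line, and 1458719_at, at 0.86 to 0.91 in all arrays of the 11Q line; the lower row shows 3 of the 5 most variable.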

How the data were processed

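Each array was deposited as log2 levels per probe set, which the authors made with RMA per the submitters' processing notes. Its version is not given in the sources used here. Per the labels, RNA had an integrity number above 5.0. Array medians were 2.21 to 2.38, no arrays were identical, and pairs of arrays correlated at 0.980 to 0.995. Symbols came from the platform annotation.

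limma 3.58.1 in R 4.3.3 fitted a group-means model over all 12 arrays to the 27026 probe sets that are no controls and have a mean above the threshold (8 residual and 4.60 prior degrees of freedom). A call is a two-sided Benjamini-Hochberg adjusted p below 0.05 over all of them. Errors are standard errors of the fit unless named SD, and the small number of arrays, 3 a group, limits the precision. The steps were tested on simulated data.

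The members, lists and rules were chosen with earlier results of these data known. Probe sets named for a comparison are those called with separate groups and the largest change, up to 6 each way for the 118Q effect and the difference of effects and 3 otherwise, filled up by the smallest p to 3. The 5 brightest and 5 most variable, the 3 on either side of the threshold, the 2 most correlated named genes of some of these, and Cacna1a were added; 1433169_at is given in full as the one of its 6 with the smallest p. Shares of ID block, suffix and level are descriptions without a test. Alternatives covered filters, scaling, the variance model, weights, the samples fitted, a replicate block, the 18S covariate, another call rule and each array left out. Replicate numbers of a line are not shown to pair its groups (correlation of deviations -0.15 to 0.21), though such values cannot exclude a pairing.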

Additional observations from a re-analysis of the deposited data

Results flagged for a closer look

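Knockin effects that differed between the lines, by limma's test of the difference itself, were found for 21 unlisted probe sets. Of the probe sets named, these were 1459338_at (-2.08), 1442752_at (-2.02), 1439123_at (-1.86), 1459537_at (-1.82), 1433169_at (-1.78), 1439895_at (-1.73) and 1429906_at (-1.67), each on the log2 scale and lower in the 118Q line. The last of these was named for its fall in the 118Q knockin, and its adjusted p for the difference was 0.0491. Its 11Q knockin arrays read 4.51, 4.80 and 4.49 against 4.87, 4.53 and 5.04 in littermates.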

How the results depend on the processing

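The 118Q count of 331 was 1023 with array weights, 97 with only the groups compared, 0 with the 18S signal as covariate, 606 when a call asked for a 1.5-fold change and an unadjusted p below 0.05 (the fold rule), and 111 to 437 when an array was left out. Of probe sets with 1 symbol, 20.9% were called with weights and 2.73% by the fold rule, against 28.0% and 16.6% of unlisted ones. The count of 21 for the difference of effects was 34 with quantile normalization, 413 with array weights, 0 with the 18S signal, 586 by the fold rule and 0 to 126 without an array. Here 4.24% of probe sets with 1 symbol were called with weights and 3.73% by the fold rule, against 11.3% and 16.0% of unlisted ones. The 34 were 0.930% of unlisted probe sets, against 0.0351% of those with 1 symbol. With the replicate block, whose numbers are not shown to pair mice, the count for the difference of effects was 8. The 118Q count was then again 331, but all lower, with no rise called (adjusted p = 0.0532 to 0.0931 for the 6 named rises, by limma). The 960 between knockins became 594 with the lowest 60% removed (of 1624 members left), 2085 with weights, 0 with the 18S signal and 607 to 1040 without an array. With weights 57.0% of unlisted probe sets and 48.2% of those with 1 symbol were called between knockins, and 43.1% against 18.4% were called lower. The 594 were 36.6% of the members left, against 15.9% of those with 1 symbol, and the 1040 were 28.5% against 13.7%. The count of 0 in the 11Q line was 3 with only its groups and 19 by the fold rule, and 0 to 0 without an array. The 3 were 0.0821% of unlisted probe sets, against 0.0176% of those with 1 symbol. The 19 were 0.520%, a smaller share than the 0.707% of those with 1 symbol. Between wild types the count of 0 was 51 by the fold rule (1.40%, against 0.364% of those with 1 symbol), and 0 to 0 without an array. Of the named differences, 1427820_at between knockins turned to -0.17 with the 18S signal. With that covariate 0 of the 24 named differences that had been called kept the call. It also left 0 probe sets with 1 symbol called for the 118Q effect, for the difference of effects and between knockins. Since the 18S signal differs between the groups, the covariate takes up part of any group difference. Array centring moved none of the 5 counts by more than 1.5 times. The difference of effects needs all 4 groups, so it was not refitted on fewer, and the block within a line was not run between lines. With 3 arrays a group, small changes in dim probe sets cannot be resolved, and 26 of the 323 had a knockin mean under the threshold of level.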
